A study of Mus musculus with 30 samples.

Results

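Poly(A) RNA of mouse brain at 24 months of age was compared between mice labelled Csa-/- and wild-type mice. The comparison takes the 5 columns of the Csa-/- group and the 5 columns of the wild-type group at that age, 10 of the 30 columns of counts in the series. The other 20 columns hold the same 2 genotypes at 45 days and 12 months, and are used below only to set the 24-month levels beside them. The labels give no treatment, strain or sex, and all mice were kept under a 12/12 light cycle in filtered-air cages. They name no number of animals per group and put all samples in batch 1. The series title names MAPK, PI3K-Akt, the extracellular matrix, inflammation and neuronal signalling as the subjects of the study.

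Csa is another name of Ercc8. Its product is part of a ubiquitin ligase that acts with the Ercc6 (CSB) protein when RNA polymerase II stalls at damaged DNA, the first step of transcription-coupled nucleotide excision repair. Loss of either protein in people causes Cockayne syndrome, a disorder of growth failure and progressive neurological decline with demyelination and gliosis. Mice without Csa are used as a mild model of that disorder. In brain tissue, each bulk level joins neurons, astrocytes, microglia, oligodendrocytes and vessels, so fewer cells of a type and less RNA per cell cannot be told apart in any value below.

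Each sample was sequenced 5 times, per the labels, and the columns of either group varied like repeat runs of the same library. The chi-square of the 5 run counts per degree of freedom had a median over genes of 1.01 in wild type and 1.05 in Csa-/-, where counting error alone gives about 1. The runs were summed, which left 2 libraries of 28723453 (wild type) and 37712210 (Csa-/-) counts. There is 1 library per group, so no fold below has a replicate check, and each compares these libraries and not the conditions. Levels are in CPM, that is counts relative to the TMM-scaled library total, and 3 counts correspond to 0.101 CPM in wild type and 0.0793 CPM in Csa-/-. All intervals and floors hold counting error alone.

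Ercc8 (ENSMUSG00000021694.18, chr13:108158731-108195364, mm10) was not reduced in the library labelled Csa-/-. It had 12.4 CPM in wild type and 13.4 CPM in Csa-/-, a fold of 1.08 (95% interval 0.944 to 1.24). The 5 wild-type runs gave 12.8, 10.9, 10.5, 14.4 and 14.3 CPM, and the 5 Csa-/- runs 11.3, 13.2, 11.5, 16.4 and 14.8 CPM, so the runs overlapped. A count over the whole gene cannot show an interrupted transcript, and the label was therefore not checked by it. All directions below are those of the library labelled Csa-/- relative to wild type. Markers of neurons (2 of 15 higher, 2 lower), endothelium (4 of 17 higher, 1 lower) and oligodendrocytes were present in both libraries, so both hold the labelled tissue. Of the blood list only 3 genes reached 5 CPM, 1 higher and 1 lower.

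Across the transcriptome the 24-month libraries differed more than those of the younger ages. A gene was counted from 5 CPM in either library upward, and called when the exact 95% interval of its fold lay beyond 1.5-fold. Of 12507 genes counted, 1377 were called higher in Csa-/- (11.0%) and 1248 lower (9.98%), 21.0% in all. At 45 days 981 of 12500 genes were called higher (7.85%) and 667 lower (5.34%), 13.2% in all. At 12 months 460 of 12394 were called higher (3.71%) and 259 lower (2.09%), 5.8% in all. The 24-month libraries are the most deeply sequenced, which makes their intervals the narrowest, and the count of calls depends on that depth. The median fold over all counted genes at 24 months was near 1 (median log2 fold 0.01), with 6323 genes above 1 and 6184 below.

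Many of the called genes lay at the edge of the range of all 6 libraries of the series in 24-month wild type, in 24-month Csa-/- or in both. Of the 1377 genes called higher, 1043 were lowest of all 6 libraries in 24-month wild type, and 821 were highest in 24-month Csa-/-. Of the 1248 called lower, 860 were highest of all in 24-month wild type and 755 lowest in 24-month Csa-/-. The wild-type library was lowest of the 6 for 21.7% and highest for 18.3% of all 12507 genes counted. A called gene had to differ between the 2 libraries, so these shares describe which library lay at the edge and carry no test.

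**Figure D1:**
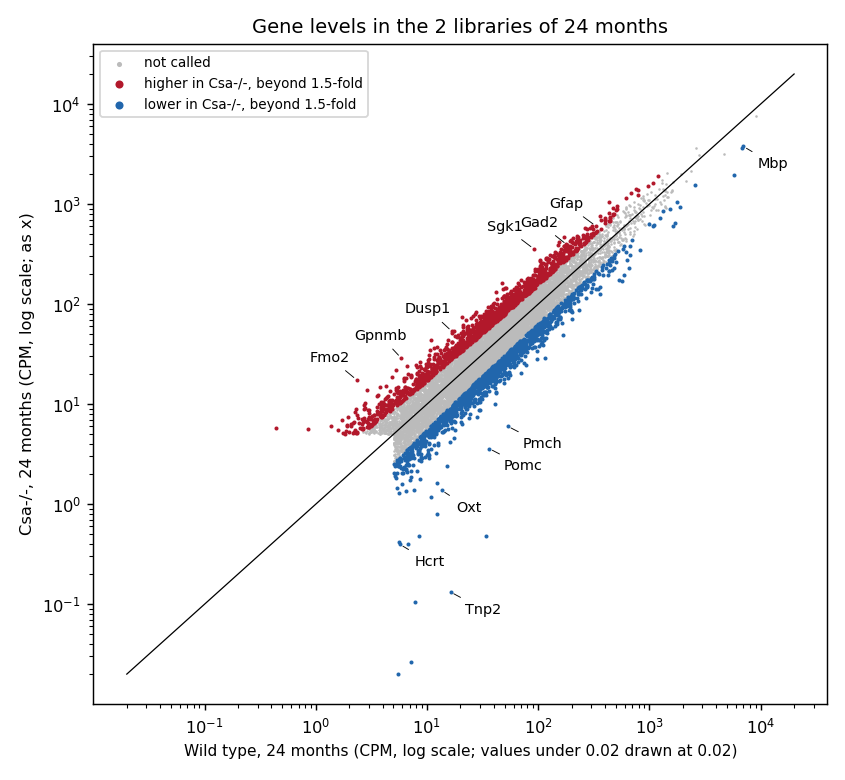
Level of each counted gene at 24 months, in CPM on log axes, with wild type on the horizontal and the library labelled Csa-/- on the vertical axis. Genes called beyond 1.5-fold are coloured by direction, 1377 of them higher and 1248 lower in all, and 11 genes are not drawn.

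The direction of the fold followed transcript length. Among 220 genes with an exonic length under 1000 bases the median log2 fold was -0.75, with 2.73% called higher and 47.3% lower. Among 2536 genes of 8000 bases or more it was 0.39, with 26.2% called higher and 1.26% lower. At the younger ages the order was the opposite, with medians of 0.77 (45 days) and 0.55 (12 months) for the shortest genes and of -0.23 and -0.08 for the longest. Across genes, which are not independent replicates and share the same 2 libraries, the correlation of log2 fold with log2 length was 0.471 at 24 months, -0.368 at 45 days and -0.248 at 12 months. With GC content it was -0.499, -0.336 and 0.349 in the same order.

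**Figure D2:**
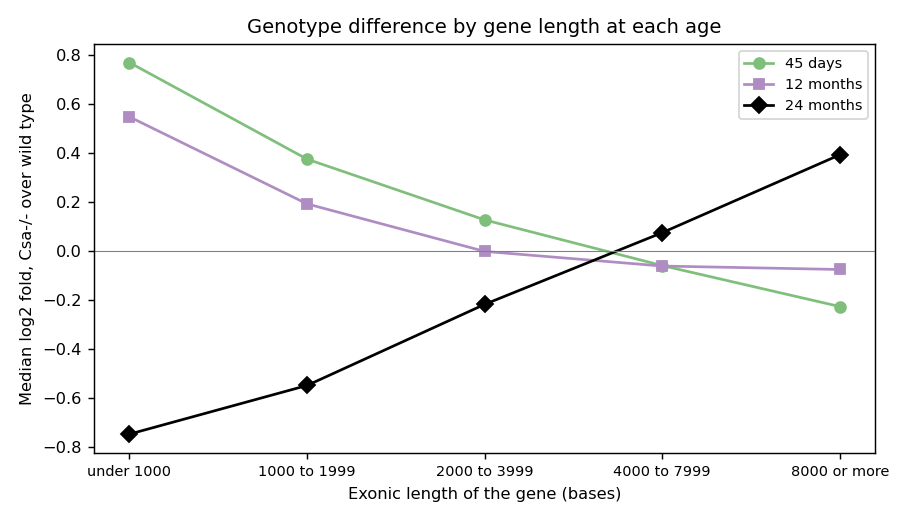
Median log2 fold (Csa-/- over wild type) by class of exonic length, in bases, at each of the 3 ages. At 24 months the median goes from -0.75 in the shortest class to 0.39 in the longest, and at 45 days from 0.77 to -0.23.

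Because of this trend, most groups of genes below are given also after the trend with length and GC content was removed from each library with a spline. With the trend removed, 525 of 12349 genes were called higher (4.25%) and 641 lower (5.19%). Of the 1377 and 1248 calls above, 760 in all kept their direction and their call. The source of the trend was not tested.

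Immediate early genes are transcribed within minutes of neuronal or hormonal stimulation, without new protein synthesis. Of 31 counted, 12 were called higher in Csa-/- and none lower, with a median log2 fold of 0.60 beside 0.01 over all genes. The median exonic length of the list was 3509 bases, shorter than the 4782 bases over all counted genes. Among the 17 transcription factors of the list 7 were called higher, and among the 14 effectors 5. The median was 0.74 with the trend removed, with 16 called higher and 1 lower. At 45 days 3 were higher and 1 lower, and at 12 months none was higher and 1 lower. From the youngest to the oldest age, the summed level of the list was 1119, 2167 and 1320 CPM in wild type and 1348, 1729 and 1786 CPM in Csa-/-. The 24-month Csa-/- sum thus lay inside the range of the wild-type libraries.

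Dusp1, a phosphatase that switches off MAP kinases, had 15.6, 16.4, 19.3, 18.6 and 15.1 CPM in the 5 wild-type runs and 53.1, 51.5, 54.0, 56.1 and 52.7 CPM in the 5 Csa-/- runs. The runs did not overlap, and the fold was 3.20 (95% interval 2.90 to 3.53). Its levels at 45 days and 12 months were 24.3 and 38.5 CPM in wild type and 28.4 and 26.1 CPM in Csa-/-, so the 24-month Csa-/- library was the highest of the 6. Fos, a subunit of the AP-1 transcription factor, had 18.7, 22.1, 19.6, 22.7 and 22.8 CPM in the wild-type runs and 48.8, 46.7, 50.9, 46.6 and 44.8 CPM in the Csa-/- runs, a fold of 2.27 (2.07 to 2.48). For Fos the highest of the 6 libraries was Csa-/- at 12 months, with 56.6 CPM.

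Apold1, a gene of vascular endothelium induced by activity, had 4.08, 3.53, 3.64, 4.81 and 5.65 CPM in the wild-type runs and 14.8, 13.7, 16.7, 17.0 and 14.5 CPM in the Csa-/- runs (3.55-fold, 2.93 to 4.33). The orphan nuclear receptor gene Nr4a1 had 63.6, 67.4, 70.8, 63.5 and 64.6 CPM against 136, 133, 139, 132 and 127 CPM (2.01-fold, 1.91 to 2.12). Nr4a1 also had 140 CPM in wild type at 12 months, above the 24-month Csa-/- library. Ccn1, a secreted matrix protein gene, stood at 3.32-fold, Egr2 at 2.42-fold, Ptgs2 (cyclooxygenase-2) at 1.97-fold, Btg2 at 1.94-fold, Junb at 1.86-fold and Npas4 at 1.74-fold. Other members were not called, among them Egr1 at 1.28-fold, Arc at 1.27-fold and Bdnf at 0.771-fold.

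The windows 250 bases upstream of the start of the 4 genes given run by run show the letters they share, and come from RefSeq, build GRCm38.p6, which has the coordinates of mm10. They are printed 5′ to 3′ on the strand of the gene, with every match to TGACG on either strand (its reverse complement CGTCA included) in capitals. TGACG is the core of the site bound by CREB-family factors, and the longer palindrome TGACGTCA contains it on both strands. Dusp1 held 3 matches, a pair of them overlapping in 1 copy of TGACGTCA, Fos held 2, Apold1 1 and Nr4a1 4.
Dusp1, chr17:26508473-26508722, strand -: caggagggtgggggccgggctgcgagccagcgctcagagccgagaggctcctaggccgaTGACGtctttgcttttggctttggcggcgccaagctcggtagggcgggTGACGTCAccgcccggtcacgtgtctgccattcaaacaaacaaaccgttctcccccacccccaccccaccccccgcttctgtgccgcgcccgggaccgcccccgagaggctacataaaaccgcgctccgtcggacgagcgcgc
Fos, chr12:85473640-85473889, strand +: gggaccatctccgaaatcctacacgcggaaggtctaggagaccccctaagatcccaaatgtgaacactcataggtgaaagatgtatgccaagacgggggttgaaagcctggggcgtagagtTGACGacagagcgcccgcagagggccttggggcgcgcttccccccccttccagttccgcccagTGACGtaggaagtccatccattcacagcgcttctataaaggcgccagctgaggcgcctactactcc
Apold1, chr6:134981751-134982000, strand +: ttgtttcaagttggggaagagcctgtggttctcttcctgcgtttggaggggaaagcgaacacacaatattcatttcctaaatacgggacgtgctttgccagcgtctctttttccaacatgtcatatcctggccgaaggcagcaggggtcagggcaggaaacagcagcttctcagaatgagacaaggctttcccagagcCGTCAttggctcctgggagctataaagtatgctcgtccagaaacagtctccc
Nr4a1, chr15:101266596-101266845, strand +: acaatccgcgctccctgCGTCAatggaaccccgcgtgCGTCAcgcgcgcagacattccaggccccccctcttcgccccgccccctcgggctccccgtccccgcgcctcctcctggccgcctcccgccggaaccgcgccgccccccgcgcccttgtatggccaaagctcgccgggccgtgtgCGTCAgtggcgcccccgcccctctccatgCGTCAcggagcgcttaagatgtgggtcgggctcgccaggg
Of the 28 immediate early genes with an entry in that table, 20 held TGACG in at least 1 window, in 22 of 39 windows (56.4%), beside 17.8% of all 32851 windows of the same length. TGACGTCA was in 7.69% of their windows and 1.55% of all. The list of hypothalamic neuropeptides, with 9 genes called lower and none higher, held TGACG in 47.8% of its windows and TGACGTCA in 13%. High shares of these letters were thus not particular to a list called higher. A match describes the letters in the window and says nothing of binding in these brains.

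The glucocorticoid list holds targets of the glucocorticoid receptor, which carries the signal of corticosterone into the nucleus, and the genes of both receptors for the hormone, Nr3c1 and Nr3c2. Of 21 counted, all were above 1 in fold, 9 were called higher and none lower, with a median log2 fold of 0.57. Without the trend 11 were called higher and none lower (median 0.70). The list stood higher at the younger ages too, with 8 higher and none lower at 45 days (median 0.68) and 5 higher and none lower at 12 months (median 0.29). Its summed level was 1133, 1457 and 1314 CPM in wild type from 45 days to 24 months and 2018, 1551 and 2129 CPM in Csa-/-, so the lowest Csa-/- library lay above the highest wild-type one.

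Sgk1, a kinase gene that glucocorticoids and mineralocorticoids induce within an hour, had 87.9, 91.5, 93.6, 91.0 and 92.6 CPM in the wild-type runs and 347, 377, 350, 338 and 375 CPM in the Csa-/- runs. The fold was 3.91 (95% interval 3.75 to 4.08), and the lowest Csa-/- library of any age (182 CPM at 12 months) lay above the highest wild-type one (105 CPM). Plin4, a lipid-droplet protein gene, stood at 5.30 against 21.8 CPM (4.12-fold, 3.47 to 4.92), and Hif3a at 6.61 against 23.9 CPM (3.62-fold). Pdk4, which restrains pyruvate oxidation, stood at 2.28-fold. Both receptor genes were among the 9 called higher, the mineralocorticoid receptor gene Nr3c2 at 1.90-fold and the glucocorticoid receptor gene Nr3c1 at 1.76-fold. The commonly used target Fkbp5 (1.14-fold), Tsc22d3 (1.36-fold) and the metallothionein gene Mt1 (1.01-fold) were not called, so the list did not stand apart evenly.

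One of the 6 RefSeq windows of Sgk1 holds GAACA and TGTTC separated by any 3 bases, the letters of a glucocorticoid response element, shown in capitals. GAACA is the reverse complement of TGTTC, so the pattern reads the same on both strands.
Sgk1, chr10:21993640-21993889, strand +: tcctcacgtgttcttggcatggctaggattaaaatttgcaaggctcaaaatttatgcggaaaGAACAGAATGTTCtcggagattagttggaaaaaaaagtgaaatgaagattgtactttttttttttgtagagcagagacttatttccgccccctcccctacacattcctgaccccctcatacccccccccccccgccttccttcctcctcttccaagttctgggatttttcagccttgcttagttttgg
That was the single match in the 31 windows of the glucocorticoid list (3.23%), beside 0.0396% of all 32851 windows, which is 13 windows. A match is a description of the letters alone.

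The circadian clock list overlaps these genes through Per1. Of 17 clock genes 5 were called higher and none lower, with a median log2 fold of 0.36, and 5 were called higher with the trend removed. Ciart, a repressor of the clock, stood at 2.75-fold, Per1 at 1.96-fold, Clock at 1.86-fold, Nr1d2 at 1.75-fold and Cry1 at 1.69-fold. Members of both the activating and the repressing arm of the clock were thus among those called. At 45 days 4 of the clock genes were higher and none lower.

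Genes of reactive astrocytes and of activated microglia were called in the higher direction alone. Of 18 counted genes of reactive astrocytes 6 were called higher and none lower (median log2 fold 0.37), and 5 and none with the trend removed (0.47). Osmr, the receptor subunit for oncostatin M, stood at 3.75 against 15.0 CPM (4.00-fold), the protease inhibitor gene Serpina3n at 22.3 against 70.0 CPM (3.13-fold) and the hyaluronan receptor gene Cd44 at 2.39-fold. Gfap, the intermediate filament of astrocytes, had 330 CPM in wild type and 604 CPM in Csa-/- (1.83-fold, 1.78 to 1.87). Its younger wild-type levels were 274 and 189 CPM, and its Csa-/- levels 256 CPM at 45 days and 554 CPM at 12 months, so Csa-/- stood above wild type at 12 and 24 months but not at 45 days. Of 15 homeostatic astrocyte genes 3 were called higher and none lower, the water channel Aqp4 (2.42-fold), the bicarbonate transporter Slc4a4 (2.05-fold) and the glutamate transporter Slc1a2 (1.62-fold). The median of that list was -0.14, and S100b stood at 0.653-fold without being called. Without the trend 1 of the 15 was higher and none lower (median -0.04).

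Of 17 genes of activated microglia 6 were called higher and none lower (median 0.34), and 7 and none with the trend removed (0.44). Gpnmb, a membrane glycoprotein of lipid-laden phagocytes, had 6.2, 5.30, 5.23, 7.56 and 5.79 CPM in the wild-type runs and 29.6, 26.8, 32.0, 27.6 and 29.2 CPM in the Csa-/- runs (4.97-fold, 4.23 to 5.87). It was higher with age in both genotypes, from 0.665 to 2.56 to 5.84 CPM in wild type and from 1.41 to 8.18 to 29.0 CPM in Csa-/-. The pattern receptor Clec7a stood at 3.44-fold, the integrin Itgax at 3.38-fold, Igf1 at 2.16-fold, Spp1 (osteopontin) at 1.91-fold and the lysosomal Cd68 at 1.85-fold. Other genes of the same state were not called, with Apoe at 0.723-fold, Tyrobp at 0.711-fold and Trem2 at 0.905-fold. Of 14 homeostatic microglial genes, 2 were called higher, among them P2ry12 (2.10-fold), and Aif1 (0.411-fold) was called lower, while Tmem119 stood at 0.614-fold uncalled. The 14.3% higher and 7.14% lower were near the shares of all genes, 11.0% and 9.98%. The median of the homeostatic list was 0.30, and with the trend removed 2 were higher and none lower (0.34), so the lower call of Aif1 was lost.

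Complement, the serum cascade that tags synapses and debris for removal, had 4 of 8 counted genes called higher and none lower (median log2 fold 0.90, and 1.00 with the trend removed). C4b had 75.4 to 87.6 CPM in the 5 wild-type runs and 172 to 196 CPM in the 5 Csa-/- runs, which did not overlap (2.27-fold, 2.17 to 2.38). In both genotypes C4b was higher at each later age, with 18.9, 38.8 and 80.9 CPM in wild type and 18.6, 137 and 183 CPM in Csa-/-. The receptor gene C3ar1 stood at 2.40-fold and C3 at 2.00-fold. The subunits of the initiating C1q complex were not called, with C1qa at 1.09-fold, C1qb at 0.844-fold and C1qc at 1.33-fold.

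Inflammation genes were ordered into 4 cytokines and chemokines (1 called higher), 13 receptors (4 higher) and 9 signalling genes (1 higher), with none of the 26 lower and a median log2 fold of 0.30. Without the trend 5 were higher and 1 lower (median 0.35). The called receptors were Tlr7 (3.28-fold) and Tlr3 (1.97-fold), which sense RNA in endosomes, the interleukin-1 receptor gene Il1r1 (2.69-fold) and Il6st (1.92-fold), the shared signalling subunit of the interleukin-6 family. Il33, an alarmin of oligodendrocytes and astrocytes, stood at 1.73-fold, and Tnfaip3, a brake on NF-kappaB, at 2.29-fold. The classical cytokines Il6, Tnf and Il1b lay under 1 CPM in both libraries.

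Interferon-response genes were split by role, with 2 of 6 sensors and regulators called higher and none lower, and 4 of 12 effectors higher and 2 lower. The median log2 fold was 0.52, and 0.41 with the trend removed, where 6 were higher and none lower. The RNA sensors Ifih1 (MDA5, 2.67-fold) and Ddx58 (RIG-I, 1.91-fold) and the effectors Trim30a (2.45-fold), Ifit1 (2.24-fold), Oasl2 (2.12-fold) and Ifit3 (2.03-fold) were called higher. Ifi27 (0.506-fold) and Bst2 (0.475-fold), which have short transcripts of 1467 and 903 bases, were called lower. Ifit1 was higher at each later age in both genotypes, with 2.94, 4.21 and 7.96 CPM in wild type and 5.30, 6.95 and 17.8 CPM in Csa-/-. For 14 of the 18 counted genes the 24-month Csa-/- library was the highest of the 6. Of 11 antigen-presentation genes B2m, the light chain of MHC class I, was called higher (73.6 against 153 CPM, 2.08-fold) and the MHC class II gene H2-Eb1 lower (0.385-fold), and 1 was called in each direction with the trend removed. The 9.09% called in each direction were near the shares of all genes, 11.0% higher and 9.98% lower.

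The MAPK cascade passes growth-factor signals from receptors through Ras and 3 tiers of kinases to transcription factors, and phosphatases end the signal. Of 69 counted genes 18 were called higher and 2 lower, beside 11.0% and 9.98% of all genes, with a median log2 fold of 0.36. By role, 9 of 19 receptor and Ras genes were higher and none lower (median 0.65), 3 of 28 kinases higher and 2 lower (median 0.05), and 6 of 22 phosphatases and effectors higher and none lower (median 0.39). With the trend removed 2 were higher and 2 lower (median 0.17), so most of these calls were lost. The neuregulin receptor gene Erbb4 stood at 2.38-fold and the Ras inhibitor Nf1 at 2.15-fold. Among the kinases Map3k2 (2.07-fold), Braf (2.02-fold) and Taok1 (1.98-fold) were called higher and Mapk11 (0.524-fold) and Map2k2 (0.495-fold) lower. Mapk3, the gene of the terminal kinase ERK1, stood at 0.924-fold and was not called. Of the effectors, the kinase Rps6ka3 stood at 2.12-fold and the transcription factor Mef2c at 1.97-fold.

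In the PI3K-Akt list 16 of 61 genes were called higher and 2 lower (median log2 fold 0.36), and 7 and none with the trend removed (0.22). Receptors and integrins held 5 of 17 called higher, kinases and phosphatases 7 of 24 higher and 1 lower, and effectors 4 of 20 higher and 1 lower. Itgb8, an integrin that activates TGF-beta, stood at 10.7 against 34.9 CPM (3.25-fold, 2.88 to 3.69). In the 45-day libraries Itgb8 had 36.6 CPM in wild type and 7.72 CPM in Csa-/-, the opposite order, and at 12 months 23.4 and 36.7 CPM. Rictor (1.74-fold), a subunit of the kinase complex that activates Akt, and Pik3r1 (1.64-fold), the regulatory subunit of PI3K, were called higher. The kinase genes Akt1 (0.696-fold) and Akt2 (0.602-fold) stood lower, of which Akt2 was called. Foxo3, a transcription factor that Akt restrains, stood at 2.21-fold, Prkaa1, the catalytic subunit of AMP kinase, at 2.24-fold, Irs2 at 1.63-fold and the cell-death gene Bad at 0.480-fold. The called genes thus include kinases of the pathway and a factor that it restrains.

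Genes of the extracellular matrix are given by family, between which no difference was tested. Over all 67 counted, 7 were called higher and 5 lower (median log2 fold -0.01), a share near that of all genes. None of 18 collagens was called higher and 3 were called lower (median -0.41), namely Col4a2 (0.560-fold), Col1a1 (0.555-fold) and Col16a1 (0.520-fold). Of 20 laminins and glycoproteins 3 were called higher and none lower (median 0.37), the perineuronal-net protein Tnr (2.99-fold), Reln (2.11-fold) and the basement-membrane protein Nid1 (2.05-fold). Of 18 proteoglycans and link proteins Vcan (2.11-fold) and Hapln1 (1.84-fold) were higher and Cspg5 (0.534-fold) lower. Of 11 proteases and regulators Adamts5 (2.77-fold) and Mmp16 (2.19-fold) were higher and Mmp14 (0.471-fold) lower. Tnr stood at 27.6 CPM in 24-month wild type and at 82.6 CPM in Csa-/-, while its other wild-type levels were 84.0 and 69.6 CPM. The 24-month Csa-/- level of Tnr thus lay within the younger wild-type ones, and the wild-type library was low. With the trend removed 4 matrix genes were higher and 4 lower, by family none and 1 of the collagens, 3 and none of the laminins and glycoproteins, 1 and 1 of the proteoglycans and none and 2 of the proteases.

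**Figure D3:**
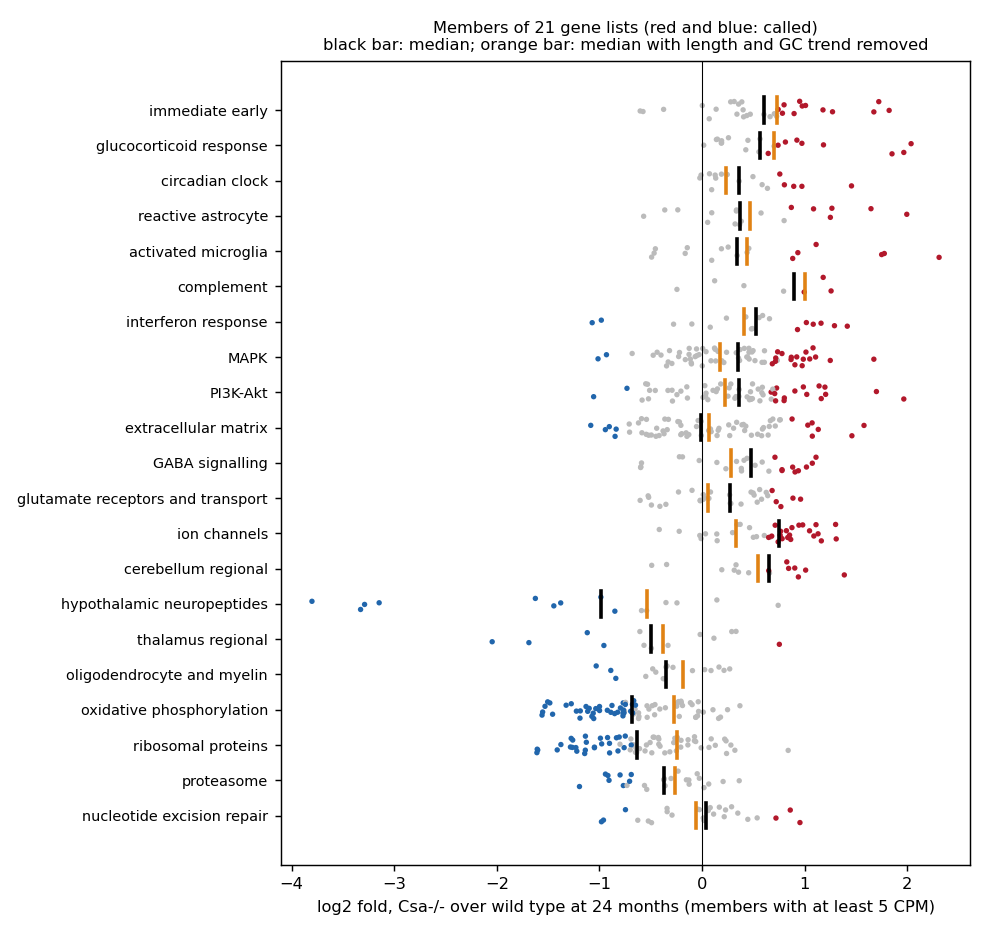
Log2 fold (Csa-/- over wild type, 24 months) of the counted members of selected gene lists, 1 point per gene, red or blue where called, with the list median as a black bar and the median with the length and GC trend removed as an orange bar. Glucocorticoid targets and ion channels lie mostly above 0, and neuropeptides, oxidative phosphorylation and ribosomal proteins mostly below.

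In neuronal signalling, ion channels and GABA genes stood higher at 24 months, but most channel calls were lost with the trend removed. Of 38 voltage-gated channel genes 23 were called higher and none lower (median log2 fold 0.75), 11 of 20 potassium channels and 12 of 18 sodium, calcium and pacemaker channels. Their summed level was 7094, 8209 and 5150 CPM in wild type from 45 days to 24 months and 5723, 7032 and 7794 CPM in Csa-/-. The 24-month wild-type library was the lowest of the 6 for 23 of the 38, and the 24-month Csa-/- one the highest for 11. Kcna1, a channel of axons, followed that order with 275, 262 and 156 CPM in wild type and 194, 283 and 331 CPM in Csa-/- (2.13-fold). Kcnb2 stood at 2.48-fold, Kcnh7 at 2.47-fold, the calcium channel subunit Cacnb4 at 2.24-fold, Scn2a at 1.97-fold and Scn1a at 1.92-fold. The median exonic length of these genes was 11280 bases, beside 4782 bases over all counted genes. With the trend removed 2 of the 38 were called higher and none lower (median log2 fold 0.33), beside 4.25% higher and 5.19% lower over all genes. That share of higher calls was near the one of all genes.

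Of 26 genes of GABA signalling 10 were called higher and none lower (median log2 fold 0.48), 7 of 15 receptor subunits and 3 of 11 genes of synthesis, transport and interneuron identity. Without the trend 7 were called higher and none lower (0.28). Gad2, which makes GABA at terminals, had 171, 196, 186, 188 and 173 CPM in the wild-type runs and 371, 401, 408, 377 and 407 CPM in the Csa-/- runs, which did not overlap (2.16-fold, 2.09 to 2.23). Its wild-type levels at 45 days and 12 months were 242 and 347 CPM, so the 24-month wild-type library was the lowest of that genotype. Among those called higher were the receptor subunit genes Gabrb2 (2.02-fold) and Gabra6 (1.92-fold, a subunit of cerebellar granule cells) and the enzyme gene Gad1 (1.72-fold). The interneuron markers Sst (0.664-fold) and Pvalb (0.660-fold) stood below 1 and were not called, so interneuron genes did not move together.

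Glutamate signalling held 5 of 32 genes called higher and none lower (median log2 fold 0.27), and none in either direction with the trend removed (0.06). The 15.6% called higher stand beside 11.0% of all genes, and 9.98% of all genes were called lower. The 5 called were the receptor genes Grm5 (1.95-fold), Grin2a (1.85-fold), Grin2b (1.70-fold), Grik2 (1.65-fold) and Gria4 (1.61-fold), and with the trend removed Grik2 stood at 0.987-fold. Of 28 monoamine and acetylcholine genes 7 were called higher and 1 lower (median 0.41), 5 of 15 receptors and 2 of 13 genes of synthesis and transport higher. The serotonin receptor gene Htr2a had 5.07, 3.21, 4.91, 3.78 and 6.36 CPM in the wild-type runs and 18.1, 18.0, 20.5, 16.9 and 20.4 CPM in the Csa-/- runs (3.89-fold). The muscarinic receptor gene Chrm2 stood at 3.38-fold and the choline transporter Slc5a7 at 2.56-fold. The lower gene was Hdc (0.328-fold), which makes histamine in the posterior hypothalamus and in mast cells. Without the trend 4 were higher and 1 lower.

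Hypothalamic neuropeptides stood lowest against wild type of all lists with at least 5 genes counted, except for the testis list. Of 26 listed, 15 were counted, some of them through wild type alone. Of the 15, 9 were called lower and none higher (median log2 fold -0.99), and 5 and none with the trend removed (-0.54). By role, both posterior-pituitary hormones, all 6 peptides of feeding and arousal (median -2.30) and 1 of 7 releasing factors and related peptides were lower. The summed level of the list was 362, 354 and 589 CPM in wild type from 45 days to 24 months and 567, 385 and 333 CPM in Csa-/-. For 8 of the 15 the 24-month wild-type library was the highest of the 6, and for 4 the 24-month Csa-/- library the lowest.

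Pmch, the melanin-concentrating hormone gene of the lateral hypothalamus, had 51.8, 52.6, 49.3, 53.2 and 59.1 CPM in the wild-type runs and 4.99, 6.4, 6.36, 6.79 and 5.66 CPM in the Csa-/- runs, a fold of 0.113 (0.0975 to 0.130). Its other levels were 20.6 and 41.4 CPM in wild type and 49.3 and 24.3 CPM in Csa-/-, so the 24-month Csa-/- level lay below all of them. Hcrt, the orexin gene of the same region, had 6.34, 5.14, 6.34, 5.15 and 5.23 CPM against 0.713, 0.582, 0.141, 0.400 and 0.126 CPM (0.0696-fold, 0.0381 to 0.118). Its other levels ran from 1.47 to 4.09 CPM. Oxt, the oxytocin gene, had 15.9, 14.9, 12.8, 12.0 and 11.3 CPM against 1.19, 1.46, 1.27, 2.13 and 0.881 CPM (0.101-fold, 0.0744 to 0.136). The other 4 libraries had 3.09 to 4.57 CPM of Oxt, between the 24-month ones, so wild type was the highest and Csa-/- the lowest of the 6.

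Pomc, the precursor of melanocortins and of pituitary corticotropin, had 38.6, 35.3, 30.6, 40.2 and 38.2 CPM in the wild-type runs and 4.63, 2.04, 4.38, 3.73 and 3.02 CPM in the Csa-/- runs (0.0992-fold). Its other levels were 11.2 and 0.426 CPM in wild type and 2.08 and 30.7 CPM in Csa-/-. Avp (vasopressin) stood at 0.323-fold, Trh at 0.367-fold, Tac2 at 0.384-fold, Npy at 0.505-fold and Cartpt at 0.555-fold. Pomc is also 1 of 5 counted pituitary markers, of which it and Gh were called lower and none higher. The summed level of the pituitary list was 745, 225 and 2025 CPM in wild type and 278, 1959 and 884 CPM in Csa-/-, so the 12-month Csa-/- and the 24-month wild-type libraries were both high. Gh, the growth hormone gene, had 1708 CPM in 24-month wild type and 648 CPM in Csa-/- (0.380-fold), and with the trend removed Pomc but not Gh was called. How much hypothalamus and pituitary each library held was not tested.

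**Figure D4:**
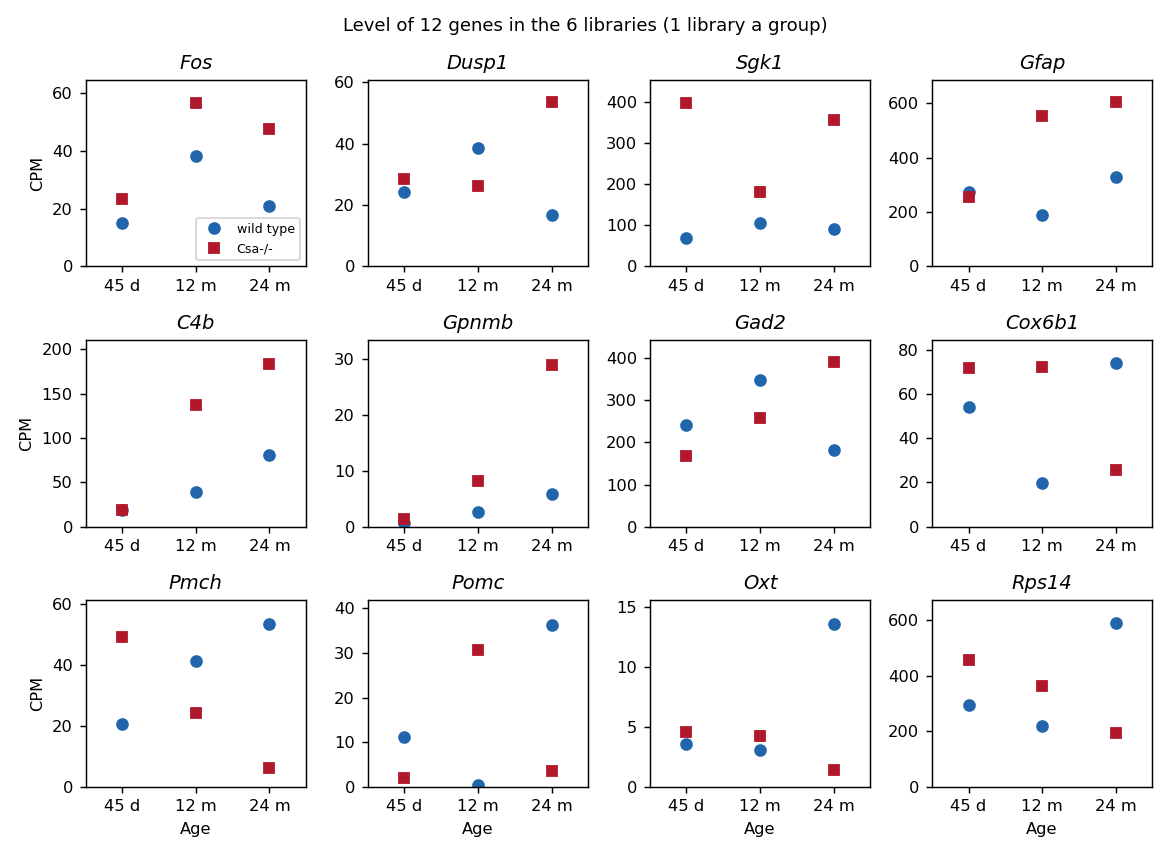
Level in CPM of selected genes in the 6 libraries, by age and genotype, 1 point per library on axes that start at 0. Sgk1 is higher in Csa-/- at each age, while Pmch, Oxt, Rps14 and others change their order between ages.

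Markers of other regions also differed between the 2 libraries. Of 7 regional genes of the hypothalamus 2 were called lower and none higher, and of 13 thalamic genes 4 lower and 1 higher (median log2 fold -0.49). The thalamic genes called lower were Ramp3 (0.242-fold), Tnnt1 (0.310-fold), Lef1 (0.460-fold) and Calb2 (0.515-fold). Of 16 cerebellar genes 8 were called higher and none lower (median 0.65), among them Svep1 (2.62-fold), Itpr1 (1.87-fold) and Cbln3 (1.77-fold). The cerebellar sum was 3241, 2387 and 2034 CPM in wild type and 3161, 3101 and 3272 CPM in Csa-/-, lowest in 24-month wild type. With the trend removed 4 cerebellar genes were higher and none lower, 4 thalamic genes lower and none higher, and 1 hypothalamic gene lower and none higher. Of 18 brainstem and spinal genes listed only 2 were counted, so they do not describe the region. Both were called higher, the glycine transporter gene Slc6a5 (2.90 against 13.7 CPM, 4.72-fold) and the glycine receptor gene Glra1 (2.09-fold). Slc6a5 was counted through Csa-/- alone. Slc6a5 had 18.5 CPM in 12-month Csa-/- and 15.0 CPM in 45-day wild type, so both genotypes reached that level. Cortical and hippocampal genes (4 of 19 higher, 1 lower), striatal genes (2 of 16 higher, none lower) and olfactory bulb genes (5 of 12 higher, 2 lower) were called in both directions or higher. Of choroid plexus genes 1 of 14 was higher and 3 lower, and of ependymal genes none of 8 higher and 3 lower. Over all counted genes 11.0% were called higher and 9.98% lower. Without the trend the higher and lower calls were none and none for cortex and hippocampus, 2 and none for striatum, 4 and 1 for olfactory bulb, 2 and 2 for choroid plexus and none and 1 for ependyma. The part of these regional differences in the results on neuronal genes was not tested.

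Several genes of testis had counts in wild-type brain at 24 months and few or none in Csa-/-. The list summed to 38.2, 37.0 and 105 CPM in wild type from 45 days to 24 months and to 28.4, 26.3 and 27.0 CPM in Csa-/-. Of 22 genes listed, 9 reached 5 CPM in either library and were counted, several of them through wild type alone. For 8 of these 9 the 24-month wild-type library was the highest of the 6. The share called lower thus depends on that filter and carries no test. Of the 9, 7 were called lower and Sycp3, a gene of the synaptonemal complex, higher (2.10-fold), and 6 and 1 with the trend removed. Gapdhs (14.0 against 5.29 CPM) and Ddx4 (6.65 against 3.02 CPM) were lower but well above the floor in Csa-/-. Tnp2, a protein that packs sperm DNA, had 15.5, 15.4, 15.7, 19.9 and 17.1 CPM in the wild-type runs and 0 to 0.283 CPM in the Csa-/- runs. Smcp, a gene of the sperm mitochondrial capsule, had 163 counts in wild type and 0 in Csa-/-, at least 69.3-fold lower against a floor of 3 counts per library. In the same way Akap4 stood at least 62.5-fold, Crisp2 at least 49.4-fold and Kif2b at least 43.0-fold lower.

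**Figure D5:**
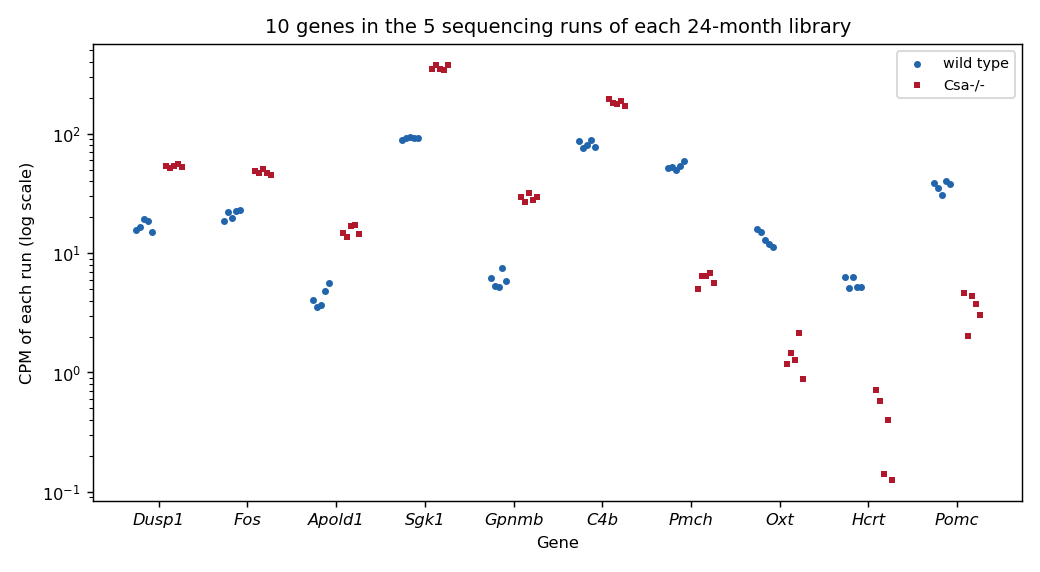
Level in CPM (log axis) of selected genes in each of the 5 runs of 24-month wild type and of Csa-/-, 1 point per run. For each gene drawn the runs of the 2 libraries do not overlap, and the points show counting error and run-to-run spread only.

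Genes of the respiratory chain leaned lower in each of the 5 complexes, least in complex II (median log2 fold -0.33). With the trend removed none of the 4 genes of complex II was called (-0.08). Of 73 counted, 38 were called lower and none higher (median log2 fold -0.68): 20 of 35 in complex I, 1 of 4 in complex II, 6 of 9 in complex III, 5 of 10 in complex IV and 6 of 15 in complex V. These are short transcripts, with a median exonic length of 1737 bases, and with the trend removed 17 were lower and 1 higher (median log2 fold -0.27). At 45 days 28 were called higher and none lower (median 0.55), and at 12 months 9 higher and none lower (0.21), the opposite direction. Cox6b1, a subunit of complex IV, had 54.3, 19.7 and 74.1 CPM in wild type and 72.0, 72.2 and 25.6 CPM in Csa-/- (0.346-fold). Its 24-month Csa-/- level thus lay above that of wild type at 12 months. Of complex I, Ndufb4 stood at 0.338-fold, Ndufa2 at 0.340-fold and Ndufb7 at 0.352-fold, of complex III Uqcrq at 0.357-fold, and of complex V Atp5e at 0.413-fold. Sdha, the longer catalytic subunit of complex II, stood at 1.29-fold.

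Ribosomal protein genes showed a like pattern, with 28 of 69 called lower and none higher (median log2 fold -0.64), 12 of 41 of the large and 16 of 28 of the small subunit. With the trend removed 18 were lower and 3 higher (-0.24), and at 45 days 21 were higher and none lower. Rps14 had 293, 220 and 590 CPM in wild type and 458, 362 and 194 CPM in Csa-/- (0.330-fold), highest and lowest of the 6 at 24 months. Rps16 stood at 0.327-fold, Rplp1 at 0.328-fold and Rpl27a at 0.376-fold. Short, highly similar ribosomal pseudogenes can share reads with these genes, so single values are uncertain. Of 25 proteasome subunits 8 were called lower and none higher (median -0.37), with Psma7 at 0.437-fold, and 2 with the trend removed.

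Small nucleolar RNAs, which lack a poly(A) tail, moved in the same direction as short messenger RNAs. Of 35 counted, 20 were called lower and 1 higher (median log2 fold -0.94). At 45 days 33 of 38 were called higher (median 1.59) and at 12 months 44 of 44 (median 2.26). Their summed level was 758, 756 and 1910 CPM in wild type and 1964, 3306 and 810 CPM in Csa-/-. The precursor of ribosomal RNA, Rn45s, had 5778 CPM in 24-month wild type and 1968 CPM in Csa-/-. What set these levels was not tested, nor was their part in the values of short genes.

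Genes of myelin, which is lost in Cockayne syndrome, were called lower for 4 of 19 and higher for none (median log2 fold -0.35), and the same counts held with the trend removed (-0.19). Mbp, a main protein of compact myelin, had 5930, 3902 and 6994 CPM in wild type and 6717, 5998 and 3775 CPM in Csa-/- (0.540-fold). The 24-month Csa-/- level was close to that of wild type at 12 months. Mag, an adhesion protein of the inner myelin sheath, stood at 0.558-fold and Opalin at 0.489-fold. Of 8 genes of oligodendrocyte precursors 1 was called higher and none lower.

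Genes of the stress of unfolded proteins leaned lower, with 5 of 23 called lower and 1 higher (median log2 fold -0.30). Cryab (0.530-fold) was the single heat-shock gene of 9 called, and the other 4 lower genes were of the unfolded protein response, the chaperones Calr (0.569-fold) and Sdf2l1 (0.498-fold) and the transcription factors Ddit3 (0.533-fold) and Atf4 (0.633-fold). The co-chaperone gene Dnajb9 stood at 1.73-fold. Without the trend 4 were lower and none higher. Of 17 genes of sterol synthesis 1 was called higher and 1 lower (5.88% each, beside 11.0% and 9.98% of all genes), and none in either direction without the trend.

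Genes of nucleotide excision repair, the pathway in which Csa acts, did not move 1 way. Of 26 counted, 3 were called higher and 3 lower (median log2 fold 0.04), and 1 and none with the trend removed (-0.06). The 11.5% called in each direction were near the shares of all genes, 11.0% higher and 9.98% lower. Of the 7 genes of the transcription-coupled branch, Uvssa, a partner of Csa at the stalled polymerase, stood at 1.94-fold, Polr2a, the large subunit of that polymerase, at 1.81-fold, and Ercc6, the gene of CSB, at 1.45-fold without being called. Of the 19 core genes the ligase gene Cul4b stood at 1.65-fold, and Gtf2h4 (0.506-fold), the nuclease subunit Ercc1 (0.513-fold) and the damage-recognition subunit Cetn2 (0.596-fold) were called lower. Of 16 genes of the p53 response 3 were called higher and 1 lower (median 0.20), among them the damage kinases Atm (1.89-fold) and Atr (1.77-fold), and Bax (0.552-fold) lower. These 18.75% and 6.25% stand beside the 11.0% and 9.98% of all genes. After removal of the trend 2 of the 16 were higher and none lower. Trp53 itself stood at 1.02-fold, and Cdkn1a (p21), a main target of p53, at 1.63-fold with an interval that reached below 1.5-fold.

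With no replicate at 24 months, the only test takes its spread from the disagreement of the genotype difference between 45 days and 12 months. That spread is shared wholly between genes of like level and assumed to be the same at 24 months. A gene's own disagreement between the younger ages thus did not enter its SE or p. Pomc, whose genotypes changed order between those ages, is such a gene. In edgeR's quasi-likelihood test with Benjamini-Hochberg adjustment, 10 of 16560 genes rose (0.0604%) and 44 fell (0.266%) at 24 months. At an unadjusted p under 0.05 there were 1421 genes. Of the 54, 31 were called by their interval, 23 lay under 5 CPM in both libraries, and 20 of those that fell had at most 5 counts in Csa-/-. On the testis list 8 genes fell. Simulated counts were drawn with the spread that the test assumes and without a length or GC trend. On them this test found 4% of genes changed 2-fold and 69% of those changed 4-fold, so most smaller changes would be missed.

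Among genes that rose, Fmo2, a flavin monooxygenase, had 2.96, 2.09, 2.69, 2.06 and 1.70 CPM in the wild-type runs and 17.0, 18.6, 19.1, 16.1 and 17.1 CPM in the Csa-/- runs (7.53-fold, edgeR log2 difference 2.91 ± 0.63 SE, adjusted p = 0.00218). Sgk1 (1.97 ± 0.47, edgeR adjusted p = 0.0112), Gpnmb (2.31 ± 0.57, 0.0211) and Slc6a5 (2.24 ± 0.57, 0.0309) of the lists above rose too. So did Lmbrd2, Lnpep and Gucy1a2 (edgeR adjusted p = 0.0171, 0.0319 and 0.0355), of which Gucy1a2 encodes a subunit of the nitric oxide receptor. For 2 more of the 10, a single run of Csa-/- held most counts: the short RNA Gm22496 had 25.3 CPM in 1 run and 0.400 to 0.707 CPM in the others, and the pseudogene Ubb-ps 19.8 CPM in 1 run and 0.990 to 4.03 CPM in the others. Among genes that fell were 4 neuropeptides, Pmch (edgeR log2 difference -3.15 ± 0.51, adjusted p = 1.34e-06), Pomc (-3.33 ± 0.56, 3.77e-06), Oxt (-3.30 ± 0.65, 0.000338) and Hcrt (-3.83 ± 0.76, 0.000413), and the thalamic gene Ramp3 (adjusted p = 0.0151). Of the genes that rose none passed in DESeq2 or with the trend removed, where 9 genes passed in each, all of them lower; over 7 settings the adjusted p ranged from 0.000626 to 0.111 for Fmo2 and from 0.00431 to 0.358 for Sgk1. Pmch passed in all 7 settings, with adjusted p from 1.5e-07 to 0.0278, Oxt in 6 (0.000101 to 0.181) and Pomc in 5 (2.61e-06 to 1). Hcrt passed in 4 of the 6 settings that gave a value (0.000149 to 0.357), and Ramp3 in 5 of 7 (0.0078 to 0.288), neither of them in DESeq2 or with the trend removed. The pseudogene Tmem181b-ps fell as well (edgeR adjusted p = 4.11e-18), from 34.0 to 0.476 CPM, and was as low in the younger Csa-/- libraries (0.537 and 0.477 CPM). It can share reads with related copies.

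The difference between the genotype effect at 24 months and its mean at the younger ages was tested in the same fit. In that edgeR test 13 of 16560 genes were higher (0.0785%) and 80 lower (0.483%) at 24 months than at the younger ages, 1771 at an unadjusted p under 0.05. Ubb-ps (with the run noted above) was among the higher. Of the lower, 29 were small nucleolar RNAs, 6 ribosomal protein genes, 4 of oxidative phosphorylation and 5 neuropeptides. Higher were Itgb8, Tnr and Htr2a of the lists above, none of which passed in DESeq2. Rps14, for example, stood higher in Csa-/- than in wild type at both younger ages and lower at 24 months. With the trend removed no gene passed this edgeR test (1623 at an unadjusted p under 0.05), while DESeq2 passed 32 and limma-voom 145.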

How the data were processed

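Poly(A) RNA of mouse brain was sequenced on an AB SOLiD instrument with paired reads of 75 bases, each sample 5 times, per the labels' protocols. The deposited table holds raw counts for 25239 genes, made by the authors; the submitters' processing notes name the build mm10 and the tools HISAT2 2.2.1, Subread 2.0.1, SAMtools and Trimmomatic 0.3.9. The annotation and the strand setting are not given in the sources used here, so overlapping and antisense genes cannot be told apart. In all, 3431 genes had no count, and 24370 symbols matched GENCODE M21. No symbol of the table carries the mt- prefix of genes of the mitochondrial genome, so those genes could not be analysed here.

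Runs were summed where their chi-square divided by its degrees of freedom had a median under 2, over genes with a mean of at least 10 counts. TMM factors of the 24-month libraries were 1.03 (wild type) and 1.00 (Csa-/-). Folds of TMM-scaled CPM carry exact 95% Clopper-Pearson intervals, whose coverage on simulated data was 95.3%. Tests used edgeR 4.0.16 (R 4.3.3; quasi-likelihood F-test on 6 libraries with Benjamini-Hochberg adjustment; age, genotype and their 24-month difference as terms; 1 residual degree of freedom; common coefficient of variation 0.237). DESeq2 1.42.0, limma-voom (limma 3.58.1), other scalings and filters, and leaving out each run were alternatives. Removal of the trend of log CPM with exonic length and GC content used a spline for each library. On simulated data the 24-month test called 75 genes, 2 of them false, and the test against the other ages called 0% of genes changed 2-fold and 43% of those changed 4-fold. The simulated counts had the spread that the tests assume, at every age, and no trend with length or GC content. The rate of false calls in the real libraries is not known from them.

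The named genes were Ercc8, the 15 largest called folds in each direction, called members of the 43 gene lists and genes passing either test; the text names part of them. Members of lists were matched by symbol. The lists and the comparison were chosen with earlier results of these data known. Some genes chosen by the rule are not reported here.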

Additional observations from a re-analysis of the deposited data

Results flagged for a closer look

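A single run stood apart from the other 4 of its library in 4 of 74 sets of 5 runs examined, and chance gives about 1 in 20. In wild type run 4 held 2821708 counts, beside 6039222 or more in the others, and its level of Dnaaf1, a gene of cilia and sperm tails, was 4.12 CPM beside 6.74 CPM or more. In Csa-/-, run 5 held 25.3 CPM of Gm22496 beside at most 0.707 CPM, and run 4 held 19.8 CPM of Ubb-ps beside at most 4.03 CPM.

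The genotype difference at 24 months differed from the mean difference at the younger ages (edgeR's quasi-likelihood test with Benjamini-Hochberg adjustment, log2 difference ± SE) for the following genes. Higher at 24 months were Ubb-ps (4.99 ± 0.87, adjusted p = 2.35e-05), the chemokine gene Ccl28 (3.13 ± 0.80, 0.0244), Lmbrd2 (2.79 ± 0.60, 0.00188), Htr2a (2.49 ± 0.66, 0.0353), Itgb8 (2.46 ± 0.62, 0.0204), Lnpep (2.34 ± 0.58, 0.0174), Tnr (2.29 ± 0.57, 0.0204) and Gucy1a2 (2.14 ± 0.56, 0.0299). Of these genes only Lmbrd2 and Gucy1a2 passed in DESeq2 (adjusted p = 0.0173 and 0.0381).

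Lower in the same edgeR test were the neuropeptide genes Pomc (-4.76 ± 0.81, adjusted p = 1.2e-05), Hcrt (-4.38 ± 0.91, 0.000951), Oxt (-3.70 ± 0.77, 0.00114), Pmch (-3.40 ± 0.61, 3.67e-05) and Cartpt (-2.94 ± 0.60, 0.000634). The RNAs without a poly(A) tail were lower by more than 3 on the log2 scale, with Snord55 at -4.28 ± 0.59 (7.04e-09), Snord49b at -3.26 ± 0.58 (2.85e-05) and Rn45s at -3.07 ± 0.65 (0.00174). The short respiratory chain genes Ndufb4 (-3.54 ± 0.72, 0.000634), Cox6b1 (-2.66 ± 0.58, 0.00217) and Ndufa2 (-2.13 ± 0.58, 0.0483) were lower as well. Of ribosomal proteins, Rps16 (-3.11 ± 0.64, 0.000827), Rplp1 (-2.40 ± 0.57, 0.0110), Rps14 (-2.28 ± 0.57, 0.0194) and Rpl27a (-2.24 ± 0.56, 0.0204) were lower. Baiap2l1 (-4.12 ± 0.80, 0.000274), Ropn1l (-3.44 ± 0.84, 0.0156) and Enho (-2.36 ± 0.57, 0.0142) completed the named ones. With the length and GC trend removed none of those with a value passed, and Rn45s and Ubb-ps, which have no length in the annotation, were not tested. Of the lower genes Oxt, Pmch, Cartpt, Snord55, Snord49b, Ndufb4, Rps16, Rplp1 and Rps14 passed in DESeq2 too. Pomc (DESeq2 adjusted p = 0.743), Baiap2l1 (0.67), Rn45s (0.634), Ropn1l (0.158) and Enho (0.134) did not. Nor did Ndufa2 (0.0984), Hcrt (0.0826), Rpl27a (0.0695) and Cox6b1 (0.0554). For Pomc the genotypes changed order between the younger ages, and the edgeR SE of Pomc does not hold that disagreement.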

How the results depend on the processing

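The limits are those of 1 library per group, a spread borrowed from other ages, and a trend with length and GC content. With no minimum CPM 1964 genes were called lower. Removing the trend left 1166 calls, 525 higher and 641 lower, 760 of them shared; of 321 named genes 149 kept their call, 169 lost it and 3 reversed (Grik2 0.987-fold, Ndufa11 1.01-fold, Atp5k 1.08-fold), and 27 of 41 list medians moved by more than the SD between runs. Scaled by library totals alone, 1204 genes were higher and 1425 lower, so the share of higher calls went from 52.5% to 45.8%; it was 44.5% with no minimum CPM and 45.0% without the trend. Other scalings, among them TMM within the 2 libraries, which was chosen after seeing the data, cost at most 4 named genes their call. Leaving out each run gave 2483 to 2639 calls, 1294 to 1378 higher and 1189 to 1261 lower, with 23 to 26 list medians above 0 (24 with all runs). In the 24-month edgeR test (54 genes) no filter passed 93, a mean of at least 5 CPM 11, DESeq2 9 and the trend removed 9. In the test against the other ages (93 genes) DESeq2 passed 32, limma-voom 145 and the trend removed 0 (1623 at an unadjusted p under 0.05). The cause was not tested. Leaving out a library leaves no residual degree of freedom, and such tests were not run. Runs taken as replicates, which would count sequencing error only, gave 10872 of 14562 genes without a replicate block and 11001 with one. Runs with the same number correlated by 0.0563 to 0.312 in their deviations, all 5 positive; the labels give no shared batch or day for a number, and 1 correlation was too low to take the runs as paired.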

Other observations

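Beyond the lists, several genes with large folds were near their level in the other libraries in Csa-/- and low in wild type. Minar1 had 2.77 CPM in 24-month wild type and 10.2 CPM in Csa-/- (3.70-fold, 95% interval 2.91 to 4.75), beside 8.31 CPM in 45-day wild type. Hdx (3.82-fold), which encodes a homeobox protein, had 1.96 against 7.48 CPM, beside 5.84 and 6.24 CPM in the younger wild-type libraries. Cebpd, a transcription factor gene of acute inflammation, was different: it had 1.72 CPM in wild type and 6.93 CPM in Csa-/- (4.03-fold, 2.97 to 5.55), and no other library had above 2.32 CPM.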
